A study of Mus musculus with 2 samples.

Results

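The carbonic anhydrase family was examined through 10 genes, Car2, Car3, Car4, Car5b, Car6, Car8, Car9, Car11, Car12 and Car13, out of 54532 genes in the deposited expression table. They were chosen by gene name, with their measured levels and the large difference of Car6 in these same libraries already known, so the differences below are descriptions and were not tested. The first library came from CT26 cells, a mouse colon carcinoma line, given lentivirus that forced expression of mouse Oct4, encoded by Pou5f1, and of human SOX2. The other came from CT26 cells given lentivirus with no more than the empty vector. Both cultures were grown for 4 days in the same serum-containing medium before total RNA was taken. There was 1 library per group, so no difference has a replicate check, and whether either culture was a clone or a mixed population is not given in the sources used here.

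Carbonic anhydrases are zinc enzymes that interconvert carbon dioxide and water with bicarbonate and a proton. The mammalian isoforms differ mainly in where they act: in the cytosol, in mitochondria, at the outer face of the plasma membrane, or in secreted fluid. A few family members lost the zinc-binding residues and have no catalytic activity. In tumours the membrane isoforms Car9 and Car12 are known for acidifying the space around hypoxic cells, and in normal colon Car1, Car2 and Car4 are abundant in the mature surface epithelium.

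The Oct4 and SOX2 library held 31521115 gene-assigned reads and the empty-vector library 32262408. Pou5f1 was at 173 FPKM with Oct4 and SOX2 and at 0 FPKM with the empty vector. The mouse Sox2 gene was at 23.3 FPKM with Oct4 and SOX2 and 14.1 FPKM with the empty vector. How reads of the human SOX2 transgene were assigned on the mouse genome is not given in the sources used here. Whether the Sox2 values include such reads was not tested, so they are no measure of the forced SOX2. FPKM is the number of fragments per kilobase of gene length at a common library depth. The labelled colon origin was weakly marked. Of 10 epithelial marker genes, Krt18 and Krt20 were at 1 FPKM or more in both libraries, whereas Cdh1 and Cdx1 had 0 reads in both and Epcam had 2 reads with Oct4 and SOX2 and 1 with the empty vector. Of 8 mesenchymal markers 7 reached 1 FPKM in both libraries, with a sum of 1473 FPKM with Oct4 and SOX2 and 989.9 FPKM with the empty vector, and the members differed in direction. Twist1, a transcription factor gene, was the 1 of them past 2-fold, at 97.6 FPKM with Oct4 and SOX2 and 40.1 FPKM with the empty vector. Vim, an intermediate filament gene, was at 966 FPKM with Oct4 and SOX2 and 599 FPKM with the empty vector, whereas the collagen gene Col1a1 was at 39.99 FPKM with Oct4 and SOX2 and 62.1 FPKM with the empty vector. Among 8 mature colonocyte markers, Aqp8 alone reached 1 FPKM, at 1.41 FPKM with Oct4 and SOX2 and 1.47 FPKM with the empty vector.

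Of the family, Car6 stood far lower with Oct4 and SOX2, and no other member at 1 FPKM or more in a library differed by 2-fold. Car6 encodes the secreted isoform, best known from saliva. It was at 11.2 FPKM with Oct4 and SOX2, from 649 reads, and at 85.3 FPKM with the empty vector, from 4943 reads. The FPKM was thus 7.60-fold lower with Oct4 and SOX2, with a 95% counting interval of 7.004 to 8.26. Such intervals come from an exact binomial split of the reads of a gene between the libraries. They cover counting error only, not variation between cultures. In bulk RNA, fewer cells that express a gene and less of its RNA per cell cannot be told apart.

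**Figure D1:**
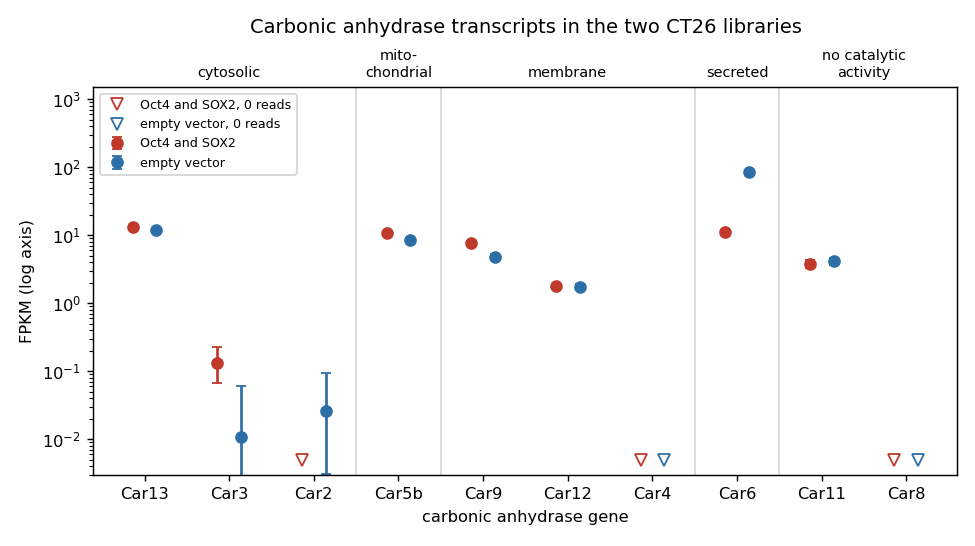
FPKM (log axis) of the 10 carbonic anhydrase genes in the Oct4 and SOX2 library (red, left of each pair) and the empty-vector library (blue, right), with 95% Poisson counting intervals. Open triangles at the foot mark 0 reads; Car6 is the gene whose points lie far apart, at 11.2 FPKM with Oct4 and SOX2 and 85.3 FPKM with the empty vector.

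Car6 (ENSMUSG00000028972) lies on the minus strand of chromosome 4, from 150187015 to 150201332 in GRCm38. GENCODE M21 gives it 4 transcripts, of which 2 are protein-coding. The longer coding transcript, the principal one, has 8 exons and 951 coding bases. The shorter one starts 2.86 kb further downstream, in the first intron of the longer one. It has 7 exons and 783 coding bases, and its coding sequence begins at an ATG inside the second exon of the longer one. A short, intracellular form of this enzyme, made from an internal promoter during stress of the endoplasmic reticulum and dependent on the factor CHOP, has been described in mouse cells. The start of each coding sequence is shown because the transcripts differ there. It runs to the end of the shared exon, at chr4:150198099-150201109 with the intron left out for the longer transcript and at chr4:150198099-150198186 for the shorter one, 5′ to 3′ on the minus strand. Capitals mark the start codon, and in the longer transcript also the ATG at which the shorter one starts.
Car6 longer transcript: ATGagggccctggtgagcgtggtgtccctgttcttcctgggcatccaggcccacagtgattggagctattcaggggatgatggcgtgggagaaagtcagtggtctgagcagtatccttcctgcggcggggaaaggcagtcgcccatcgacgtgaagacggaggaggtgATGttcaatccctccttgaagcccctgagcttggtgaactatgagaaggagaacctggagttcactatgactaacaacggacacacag
Car6 shorter transcript: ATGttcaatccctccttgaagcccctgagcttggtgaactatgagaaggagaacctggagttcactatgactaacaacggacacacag

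The inner ATG follows 168 coding bases, or 56 codons, of the longer transcript and is in the same reading frame. The stretch before it holds the coding part of the first exon, 73 bases, where a secreted protein carries its signal peptide. The transcripts share 1271 exonic bases, which is 70.0% of the 1816 bases of gene length behind the FPKM value. The deposited value is 1 number per gene, so neither the 649 reads with Oct4 and SOX2 nor the 4943 with the empty vector can be divided between the transcripts.

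The size of the Car6 difference was unusual in these libraries. The measure was log2 of FPKM + 1 with Oct4 and SOX2 minus the same with the empty vector, called the log2 ratio, for the 12401 genes at 1 FPKM or more in either library. Of these, 230 or 1.85% were at least 2-fold lower and 300 or 2.42% at least 2-fold higher. Car6 had a log2 ratio of -2.82, second lowest of all 12401 genes (rank 2). The family had 6 members in that set. Car6 was the 1 member past 2-fold lower, 0 were past 2-fold higher, and 5 were within 2-fold. The median log2 ratio of the 6 was 0.06, against -0.01 over all genes, with 4 members above 0 and 2 below. The within-2-fold member nearest the threshold was Car9 at 0.58.

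**Figure D2:**
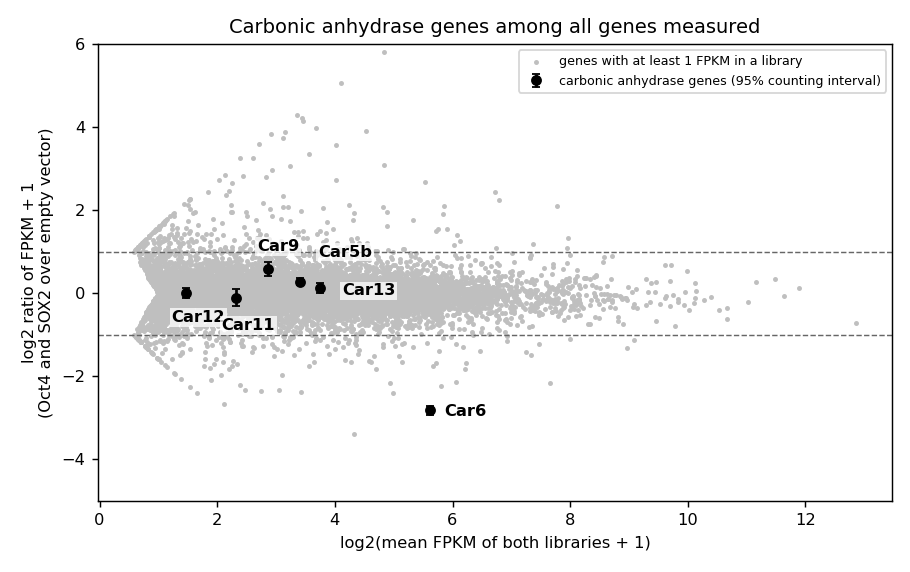
Log2 ratio of FPKM + 1 (Oct4 and SOX2 over empty vector) against log2 of the mean FPKM + 1 for genes at 1 FPKM or more in a library (grey) and the 6 carbonic anhydrase genes among them (black, with 95% counting intervals); dashed lines mark 2-fold. Car6 lies at -2.82, below nearly all genes, and the other 5 lie between the lines; 1 gene above the plotted range is not drawn.

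Counting intervals alone separate most genes of libraries this deep. The interval of the FPKM ratio lay wholly on one side of 1 for 67.3% of the 12401 genes. On the deposited scale it did so for 3 of the 6 members, Car6, Car9 and Car5b, which is not more than that background. The interval of Car13 ended next to 1, so this count depends on the scaling. For Car9 and Car5b an interval that leaves out 1 is thus common to most genes in these libraries.

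The cytosolic enzymes were represented by Car13 (ENSMUSG00000027555; chr3:14641727-14663002, plus strand). This isoform was at 13.0 FPKM with Oct4 and SOX2, from 953 reads, and at 11.9 FPKM with the empty vector, from 873 reads. On the deposited scale the ratio was 1.09 (0.997 to 1.20), an interval that just reaches 1. With plain read totals as the depth, the log2 ratio of Car13 was 0.15 in place of 0.12. Whether counting error separates the libraries for this gene thus depends on the scaling. Car2, the very fast cytosolic isoform of red cells, kidney and bone-resorbing cells, had 0 reads with Oct4 and SOX2 and 2 reads with the empty vector. A count of 0 allows up to 3 reads, or 0.0389 FPKM for Car2 in the Oct4 and SOX2 library, so both libraries lay at or under that limit and no ratio is given. Car3, a slow isoform abundant in skeletal muscle and fat, had 12 reads with Oct4 and SOX2 and 1 read with the empty vector, or 0.131 FPKM with Oct4 and SOX2 and 0.0109 FPKM with the empty vector. That is a ratio of 12.02 with an interval of 1.78 to 514, and both values are below 1 FPKM.

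Values of muscle and fat genes stand beside Car3 as follows. The 6 muscle markers summed to 1.63 FPKM with Oct4 and SOX2 and 0.0821 FPKM with the empty vector. Most of the first sum was Myh2, a fast skeletal myosin gene, at 1.24 FPKM with Oct4 and SOX2. It had 282 reads with Oct4 and SOX2 and 0 with the empty vector. Ttn had 73 reads with Oct4 and SOX2 and 78 with the empty vector. In the same order Acta1 had 13 and 3 and Ckm 10 and 0, while Mb and Tnnt3 had 0 reads in both. The 5 adipocyte markers summed to 0.241 FPKM with Oct4 and SOX2 and 0.207 FPKM with the empty vector, and Adipoq had 0 reads in both. The part of either cell type in the Car3 reads was not tested. The 7 erythroid markers, listed because Car1 and Car2 mark red cells, summed to 0.494 FPKM with Oct4 and SOX2 and 0.573 FPKM with the empty vector.

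Car5b (ENSMUSG00000031373; chrX:163976822-164027997, minus strand) encodes the broadly expressed mitochondrial isoform, which supplies bicarbonate inside the organelle. It was at 10.6 FPKM with Oct4 and SOX2, from 2154 reads, and at 8.64 FPKM with the empty vector, from 1753 reads. The ratio was 1.23 (1.16 to 1.31) and the log2 ratio 0.27. The other mitochondrial gene, Car5a, a liver isoform outside the 10, had 0 reads with Oct4 and SOX2 and 2 with the empty vector.

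The membrane enzymes differed from one another. Car9 (ENSMUSG00000028463; chr4:43506966-43513729, plus strand), a hypoxia-induced tumour antigen gene, was at 7.68 FPKM with Oct4 and SOX2, from 564 reads, and at 4.83 FPKM with the empty vector, from 355 reads. Its ratio of 1.59 (1.39 to 1.82) was the highest of the 6 members measured, at a log2 ratio of 0.58. Gm12454, an antisense gene that overlaps Car9, had 5 reads with Oct4 and SOX2 and 13 with the empty vector, and whether the counting used strand is not given in the sources used here. Car12 (ENSMUSG00000032373; chr9:66713686-66766845, plus strand), the other membrane isoform of tumours, was at 1.77 FPKM with Oct4 and SOX2 and 1.76 FPKM with the empty vector, from 429 reads with Oct4 and SOX2 and 427 with the empty vector. Its ratio was 1.01 (0.878 to 1.15). Car4, the isoform tethered to the membrane by a lipid anchor and typical of colon surface cells, had 0 reads in both libraries, which allows up to 0.0479 FPKM with Oct4 and SOX2 and 0.0478 FPKM with the empty vector.

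Car9 is a standard target of the hypoxia-inducible factor HIF, whose binding sites share the core ACGTG. The 250 bases before the RefSeq start were searched on both strands in the 6 members with a promoter entry, Car4, Car5b, Car6, Car9, Car11 and Car12. Of 32851 promoter windows of that length, 16.6% held ACGTG. Car9 held 1 match, on the minus strand at position -18 from the RefSeq start, and Car6 held 2 that overlap each other in a palindrome. The other 4 held none. The letters around the Car9 match are shown for that reason, from the plus strand at chr4:43506996-43507025 (GRCm38.p6, RefSeq), with the match in capitals as it reads on this strand.
Car9 upstream: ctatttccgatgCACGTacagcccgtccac

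In GENCODE M21 the Car9 gene starts upstream of this stretch, at 43506966, so the annotations differ on where transcription begins, and the RefSeq window of Car6 likewise runs into the first GENCODE exon. The octamer ATGCAAAT, bound by Oct4, was in 1.60% of all windows and in none of the 6. The SOX core CATTGT was in 10.7% of windows and in that of Car6, with 2 matches. The core TGCAAT, found in sites of CHOP with its C/EBP partners, was in 7.32% of windows and in none of the 6. These matches describe letters in a window, and the internal start of Car6 was not searched.

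The members without catalytic activity are Car8 and Car11. Car11 (ENSMUSG00000003273) lies at chr7:45699843-45704682 on the plus strand. Car11 was at 3.80 FPKM with Oct4 and SOX2, from 233 reads, and at 4.16 FPKM with the empty vector, from 256 reads. The ratio of 0.912 (0.760 to 1.09) left the libraries inseparable by counting error. Car8, which in brain binds an inositol trisphosphate receptor, had 0 reads in both libraries. A related domain sits in the receptor phosphatase genes Ptprg and Ptprz1. Ptprg was at 2.72 FPKM with Oct4 and SOX2 and 3.75 FPKM with the empty vector, and Ptprz1 had 0 reads with Oct4 and SOX2 and 2 with the empty vector.

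The remaining genes of the family in the table were all below 1 FPKM. Car15, which encodes an anchored isoform, was the highest of these, at 0.642 FPKM with Oct4 and SOX2 and 0.510 FPKM with the empty vector. It overlaps the protein-coding gene Gm20518 on the same strand, which had 1 read with Oct4 and SOX2 and 11 with the empty vector. How reads that match both genes were counted is not given in the sources used here. Car7 was at 0.388 FPKM with Oct4 and SOX2 and 0.310 FPKM with the empty vector. Car14 was at 0.358 FPKM with Oct4 and SOX2 and 0.246 FPKM with the empty vector, but it overlaps the far more abundant Aph1a on the opposite strand. Car1, a red cell and colon isoform, had 2 reads in each library, and Car10 had 0 in each. Together with the 10, these made 16 carbonic anhydrase genes. Of the 10, Car12 lay just inside the 1 FPKM limit, at 1.77 FPKM with Oct4 and SOX2, and the highest outside it was Car3.

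The order of levels among the 10 members differed between the libraries. With Oct4 and SOX2 the order was Car13, Car6, Car5b, Car9, Car11, Car12 and Car3, and the Poisson intervals of Car6 (10.4 to 12.1 FPKM) and Car5b (10.2 to 11.1 FPKM) overlapped. With the empty vector the order was Car6, Car13, Car5b, Car9, Car11 and Car12, and the intervals of Car9 (4.34 to 5.36 FPKM) and Car11 (3.67 to 4.71 FPKM) overlapped. Other neighbours down to Car12 had separate intervals in both libraries, on the per-length scale. Car6 made up 22.6% of the summed FPKM of the 16 family genes with Oct4 and SOX2 and 72.4% with the empty vector. The sum was 49.7 FPKM with Oct4 and SOX2 and 118 FPKM with the empty vector. Without Car6 it was 38.5 FPKM with Oct4 and SOX2 and 32.5 FPKM with the empty vector, so the remainder lay slightly the other way. Grouped by location, the membrane members Car9, Car12 and Car4 summed to 9.46 FPKM with Oct4 and SOX2 and 6.59 FPKM with the empty vector, and the cytosolic members Car2, Car3 and Car13 to 13.1 FPKM with Oct4 and SOX2 and 11.9 FPKM with the empty vector.

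The genes around Car6 that were at 1 FPKM or more, Eno1 and Rere, did not share its difference. Eno1, a glycolytic enolase gene 35.4 kb beyond the 5′ end of Car6, was at 366 FPKM with Oct4 and SOX2 and 370 FPKM with the empty vector. Rere, a transcriptional corepressor gene, was at 32.3 FPKM with Oct4 and SOX2 and 31.8 FPKM with the empty vector. The sugar transporter genes Slc2a7 and Slc2a5, on the other side, had at most 8 reads in either library, and Gpr157 had 20 reads with Oct4 and SOX2 and 12 with the empty vector. Slc45a1, the next gene beyond Rere, had 24 reads with Oct4 and SOX2 and 2 with the empty vector. On chromosome 3, Car13 lies 103 kb from Car1 and 223 kb from Car2, with Car3 between them, and of these 4 genes only Car13 was above 1 FPKM. Over the 6 members at 1 FPKM or more, the 3 nearest protein-coding genes on each side made 36 neighbours, of which 21 were at 1 FPKM or more and 0 differed by 2-fold. Over all genes 1.85% were past 2-fold lower and 2.42% past 2-fold higher, so a count of 0 among 21 says little.

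**Figure D3:**
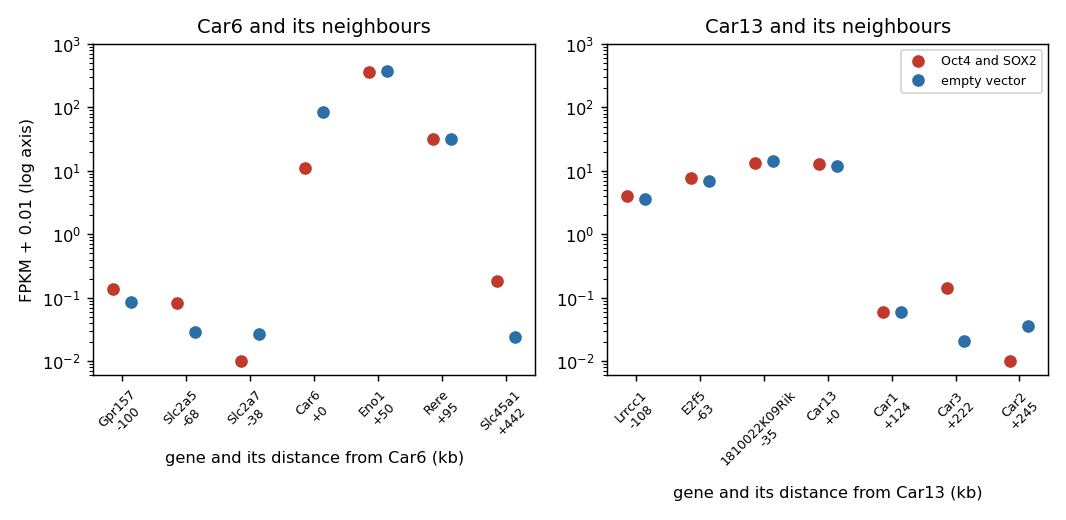
FPKM + 0.01 (log axis) of Car6 and Car13 and of the 3 nearest protein-coding genes on each side, with the distance between the lower coordinates of the genes in kb, in the Oct4 and SOX2 library (red, left) and the empty-vector library (blue, right). Car6 separates between the libraries while Eno1 and Rere beside it do not, and Car13 is the one gene above 1 FPKM in its carbonic anhydrase cluster.

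The protein-coding genes nearest to Car6 in level in both libraries were Ifi44, Ifit1, Oas1g, Usp18 and Mndal. Likeness was the distance between log2(FPKM + 1) values over 2 libraries, which can rank genes by level but holds no profile, and distances ran from 0.692 for Ifi44 to 1.10 for Mndal. Ifi44, an interferon-induced gene, was at 18.6 FPKM with Oct4 and SOX2 and 91.4 FPKM with the empty vector. Ifit1, an antiviral RNA-binding protein gene, was at 9.04 FPKM with Oct4 and SOX2 and 52.4 FPKM with the empty vector. Usp18, which encodes the protease that removes ISG15, was at 24.2 FPKM with Oct4 and SOX2 and 79.3 FPKM with the empty vector.

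Since a stress-induced form of Car6 is known, genes of the CHOP arm and the unfolded protein response were read beside it. All 14 measured of 15 listed genes had log2 ratios below 0, with a median of -0.71. Over all genes 48.3% were above 0 and 1.85% at least 2-fold lower. Ddit3, the gene for CHOP, was the 1 gene of the list at least 2-fold lower. It was at 35.8 FPKM with Oct4 and SOX2 and 76.4 FPKM with the empty vector, 2.13-fold lower (2.02 to 2.25). Hspa5, the main chaperone gene of the endoplasmic reticulum, was at 358 FPKM with Oct4 and SOX2 and 596 FPKM with the empty vector. The difference of Car6, at 7.60-fold, was larger than that of any of these 14 genes. The 1 listed gene below 1 FPKM was Atf3, with 1 read with Oct4 and SOX2 and 18 with the empty vector. Whether the stress genes have a part in the Car6 difference was not tested.

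Genes of the hypoxia response were read beside Car9 in the same way. Of 20 listed targets 17 were measured, 14 were above 0 and 3 below, and the median log2 ratio was 0.41. Over all genes 48.3% were above 0, 2.42% past 2-fold higher and 1.85% past 2-fold lower. The mitophagy receptor gene Bnip3 was the 1 measured target past 2-fold, at 47.3 FPKM with Oct4 and SOX2 and 22.1 FPKM with the empty vector. Below 1 FPKM, Aldoc had 31 reads with Oct4 and SOX2 and 6 with the empty vector, a ratio of 5.18 (2.13 to 15.2). In the same order Adm had 12 and 16 reads and Pfkfb3 25 and 30. Of 10 genes that sense oxygen or form HIF, 6 were measured, 0 were past 2-fold, 1 was above 0 and 5 below, and the median was -0.09. Egln1, an oxygen-sensing prolyl hydroxylase gene and the 1 above 0, was at 68.2 FPKM with Oct4 and SOX2 and 36.8 FPKM with the empty vector. Egln2, a related hydroxylase gene, was at 27.4 FPKM with Oct4 and SOX2 and 30.2 FPKM with the empty vector. The log2 ratio of Car9, 0.58, lay inside the range of the targets. The part of hypoxia signalling in the Car9 value was not tested.

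Genes whose products move bicarbonate, protons or lactate across membranes were mostly too low to compare. With 1.85% of all genes past 2-fold lower and 2.42% past 2-fold higher, counts of 0 in lists this short say little. Of 16 bicarbonate transporter genes 4 were measured, 0 passed 2-fold in either direction and the median log2 ratio was 0.28. That median rests on few genes, being 0.48 with a filter of 5 FPKM and 0.00 with no filter. Among those below 1 FPKM, Slc26a7, an anion exchanger gene picked after its values were seen, had 24 reads with Oct4 and SOX2 and 57 with the empty vector, 2.37-fold lower (1.45 to 3.99). Slc4a2, an anion exchanger, was at 19.1 FPKM with Oct4 and SOX2 and 15.99 FPKM with the empty vector. Slc4a7, a sodium bicarbonate cotransporter, was at 6.75 FPKM with Oct4 and SOX2 and 3.72 FPKM with the empty vector. Of 21 proton and lactate export genes 9 were measured, 0 passed 2-fold and the median was 0.21. Slc16a1, a lactate carrier gene, was at 46.2 FPKM with Oct4 and SOX2 and 60.6 FPKM with the empty vector. Its chaperone gene Bsg was at 304 FPKM with Oct4 and SOX2 and 238 FPKM with the empty vector.

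**Figure D4:**
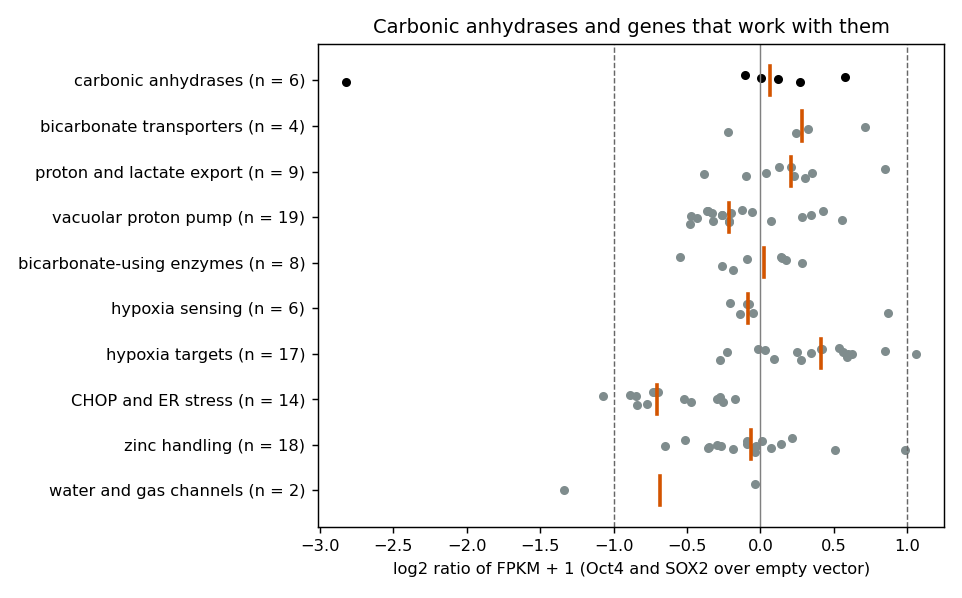
Log2 ratio of FPKM + 1 (Oct4 and SOX2 over empty vector) of each gene at 1 FPKM or more in a library, by group, with the median of each group as an orange bar and dashed lines at 2-fold; vertical scatter within a row carries no meaning. The carbonic anhydrase row holds 5 genes within 2-fold and Car6 at -2.82, and the 14 CHOP and ER stress genes all lie below 0.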

How the data were processed

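RNA was sequenced from 2 cultures of CT26 cells, 1 library per group. The authors deposited FPKM values per gene with gene length, and HISAT2, featureCounts 1.5.0-p3, CASAVA and GRCm38 are named per the submitters' processing notes. Not given in the sources used here are the strand setting, how reads with several matches were counted, and the FPKM formula. Multiplying FPKM by the deposited gene length gave, in each library, multiples of a fixed step, which was taken as 1 read. In both libraries 100% of values came out whole within 0.001 of a read. The depth implied by the step was 1.011 times the gene-assigned reads with Oct4 and SOX2 and 0.989 times those with the empty vector. The FPKM values were thus not scaled by plain totals of these reads. For all 18 family and related genes, lengths and coordinates equalled those of GENCODE M21, the length being the union of all exons. A symbol with several entries was read from the one with most reads.

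The difference used is log2(FPKM + 1) with Oct4 and SOX2 minus that with the empty vector, for genes at 1 FPKM or more in a library. The pseudocount understates the change of low genes. Ratios of plain FPKM carry exact 95% binomial intervals and levels exact Poisson ones. Floors are 3 reads. No test across samples was possible. The members and the lists were chosen with earlier results of these data known. Named genes are the members and relatives, their 3 nearest protein-coding neighbours on each side, the 5 genes nearest Car6 in level, and from each list up to 3 genes past 2-fold in each direction or else the 2 most abundant; other names, such as Hspa5, Vim, Col1a1 and Slc39a10, were chosen after their values were seen. Steps were tested on simulated data. Other settings tried were median centring, a pseudocount of 0.1 or 5 FPKM, the filter raised to 5 FPKM or dropped, rescaling without the 50 highest genes, plain read totals, an interval beyond 2-fold and protein-coding genes only. Computation used scipy 1.17.1 and pandas 2.3.3 on numpy 2.4.6 in Python 3.11.15, with plots from matplotlib 3.10.9.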

Additional observations from a re-analysis of the deposited data

How the results depend on the processing

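Car6 was the 1 member past 2-fold under all 9 alternatives, and no other member passed under any. For Car2, Car3, Car4 and Car8, below 1 FPKM in both libraries, this was fixed in advance by the filter or, without it, by the pseudocount. The log2 ratio of Car6 ran from -2.92 with a pseudocount of 0.1 FPKM to -2.79 with plain read totals, apart from -2.48 with a pseudocount of 5 FPKM. Of the 38 values of the other 5 members under the alternatives, 37 stayed inside their counting interval, and Car9 moved to 0.37 with a pseudocount of 5. The filter changes and the limit to protein-coding genes cannot alter a member's own value. Those values among the 38, and the matching ones of Car6, repeat the main result and carry no check. Counts over all genes, 230 lower and 300 higher, also moved: 459 lower and 520 higher with a pseudocount of 0.1 FPKM, 56 and 75 with 5 FPKM, 121 and 145 with a filter of 5 FPKM, and 110 and 143 among protein-coding genes. Of the listed pathway genes, markers aside, 3 passed 2-fold, 0 with a pseudocount of 5 FPKM, and 4 with a pseudocount of 0.1 FPKM, median centring, rescaling without the 50 highest genes, plain read totals or an interval beyond 2-fold. No paired analysis was possible because each group held 1 library. Depth limits Car2, Car3, Car4 and Car8, whose reads were at most 12 in either library.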

Other observations

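Water and gas channels held 1 gene past 2-fold among those at 1 FPKM or more, and over all genes 1.85% were past 2-fold lower. Aqp1, a water channel that also passes carbon dioxide, was at 3.61 FPKM with Oct4 and SOX2 and 10.6 FPKM with the empty vector, 2.95-fold lower (2.58 to 3.37). Of the 14 channel genes, Aqp8 was the other one measured. Among those below 1 FPKM, Aqp11, picked after its values were seen, went the other way. It had 88 reads with Oct4 and SOX2 and 32 with the empty vector, 2.75-fold higher (1.82 to 4.27).

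Zinc-handling genes, which supply the metal of these enzymes, had 18 of 29 measured, 0 past 2-fold and a median log2 ratio of -0.06. The metallothionein gene Mt1 was at 169 FPKM with Oct4 and SOX2 and 118 FPKM with the empty vector. The zinc importer gene Slc39a1 was at 66.5 FPKM with Oct4 and SOX2 and 60.4 FPKM with the empty vector. The zinc importer gene Slc39a10 lay just inside the threshold, at 5.90 FPKM with Oct4 and SOX2 and 2.48 FPKM with the empty vector and a log2 ratio of 0.99. Its plain FPKM ratio was 2.38 (2.14 to 2.65). Enzymes that use bicarbonate as a substrate had 8 of 9 measured, 0 past 2-fold and a median of 0.02, with the pyrimidine synthesis gene Cad at 34.7 FPKM with Oct4 and SOX2 and 31.3 FPKM with the empty vector. Acaca, the acetyl-CoA carboxylase gene, was at 9.71 FPKM with Oct4 and SOX2 and 8.47 FPKM with the empty vector. Subunits of the vacuolar proton pump had 19 of 25 measured, 0 past 2-fold, 14 below 0 and a median of -0.21. Over all genes 48.3% were above 0, 1.85% past 2-fold lower and 2.42% past 2-fold higher. Counts of 0 past 2-fold in the zinc, bicarbonate-using and proton pump lists thus say little. Atp6v1f, a subunit of its cytosolic part, was at 102 FPKM with Oct4 and SOX2 and 107 FPKM with the empty vector. Atp6v1g1, of the same part, was at 84.0 FPKM with Oct4 and SOX2 and 108 FPKM with the empty vector. The 6 leukocyte markers summed to 0.588 FPKM with Oct4 and SOX2 and 0.813 FPKM with the empty vector.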
